A study of Mus musculus with 4 samples.

Results

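The PI3K, Akt and mTOR core is a set of 35 genes that encode the intracellular part of growth-factor signalling through phosphoinositide 3-kinase. The genes were chosen by symbol from what their products are known to do, receptors and matrix proteins being left out. Earlier results of these data were known when they were chosen. All 35 were found among the 37310 genes of the deposited table. By role they fall into 20 activators, 8 inhibitors and 7 targets that the pathway holds back.

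In this pathway, class I PI3K makes the membrane lipid PIP3, which brings Pdpk1 and Akt together at the membrane so that Akt is phosphorylated and activated. Akt then restrains the FoxO transcription factors, Gsk3 and the Tsc complex, and release from the Tsc complex lets Rheb switch on mTORC1, the kinase complex that drives protein synthesis. In mouse embryonic stem cells PI3K signalling downstream of LIF is known to support self-renewal and proliferation, and Gsk3 is one of the kinases blocked by the 2i medium.

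The study compared mRNA of JM8 mouse embryonic stem cells, a line from the C57BL6/N strain, with that of a Bmal1-/- line made from it by CRISPR/Cas9. Bmal1, encoded by Arntl, is a transcription factor of the circadian clock. There were 2 wild-type libraries and 2 labelled Bmal1-/-, all from cells in serum-free 2i medium with LIF, which holds the Mek inhibitor PD0325901 at 1 µM and the Gsk3 inhibitor CHIR99021 at 3 µM. Wild-type is the parental line and Bmal1-/- is 1 clone of it, so that line and genotype cannot be told apart. The wild-type libraries held 21737170 and 21504265 reads on genes, and those labelled Bmal1-/- held 23329034 and 23021702. Values below are the deposited TMM-normalised read counts, given in the order replicate 1, replicate 2, and 3 reads correspond to a value between 2.82 and 3.19.

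Arntl mRNA was present in all 4 libraries, at 678 and 733 in wild-type and at 556 and 590 in those labelled Bmal1-/- (log2 fold change −0.30, SE 0.07, adjusted p = 0.0011 in limma). Its groups did not overlap, but the difference was small, and a short insertion or deletion in a coding exon, the kind of lesion the study describes for this line, need not remove the mRNA, so a gene-level value does not check this label. The mutant libraries are therefore called labelled Bmal1-/- throughout, and each direction below rests on the label.

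The markers of naive embryonic stem cells were abundant in all 4 libraries. Their 10 genes summed to 118760 and 116820 in wild-type and 126200 and 128320 in the labelled Bmal1-/- libraries, with Tfcp2l1 the highest by mean value. Of these 10 genes, 5 were higher and 5 lower in the labelled Bmal1-/- libraries, where 52.6% of all genes tested were called. The summed level of each list of other cell types was far lower, but this did not hold for every single gene. The neural marker Tubb3 stood at 2785 and 2512 in wild-type, near the naive marker Tbx3 at 2771 and 2648. In the labelled Bmal1-/- libraries Tubb3 stood at 1192 and 1088, and Tbx3 at 3526 and 3443. The primed markers summed to at most 27.6 in a library, with Pou3f1 at 0, and the blood markers to at most 10.3, with Hbb-b1 at 0 and Ptprc at no more than 1 read. Genes of the extraembryonic lineages and of fibroblasts were low as well. The primitive endoderm list (6 genes, led by Gata4) summed to between 172 and 185, with Gata4 and Sox17 higher. Sox7 was lower, but passed the filter on low values only through wild-type. Trophoblast markers (5 genes, led by Cdx2, which was lower) summed to between 106 and 132, and fibroblast markers (4 genes, led by Thy1, which was higher) to between 69.5 and 107.

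The markers that moved most between the labels were those of two-cell-like cells, a rare state of these cultures. All 3 matched genes of the 5 on that list, Zscan4c, Zscan4d and Zscan4f, were higher, and their sum was 106 and 137 in wild-type against 1590 and 1546 in the labelled Bmal1-/- libraries, led by Zscan4c. The 4 neural markers summed to 3752 and 3488 in wild-type and 2101 and 1970 in the labelled Bmal1-/- libraries, led by Tubb3. Tubb3 was lower, as was Pax6, which passed the filter only through wild-type. Nes did not pass the test (log2 fold change −0.08) and Neurog2 had at most 3 reads. These shifts go with the label as every pathway difference does, and their part in the values below was not tested. Fewer cells of a state and less RNA per cell cannot be told apart in bulk libraries.

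The shares of relatives among the PI3K regulatory subunits, among the FoxO factors and between Akt1 and Akt2 differed between the labels. The PI3K regulatory subunit Pik3r3 and the kinase Sgk3 were more than 2-fold higher in the labelled Bmal1-/- libraries, and Akt1 was lower. Of the inhibitors and restrained targets 6 were higher, with Inpp5d, Deptor and Foxo3 the most changed, and 2 were lower, Akt1s1 and Foxo4. In each of these roles 57.1% of the tested genes were called, beside 52.6% of all genes tested. The mTOR complex genes Mtor and Rictor were slightly higher, while Akt2, Rptor, Tsc2 and both 4E-BP genes did not pass the test. Of the 35 genes, 34 reached a mean of 10 across libraries and were tested. The exception was Inpp4b, which encodes a PI(3,4)P2 phosphatase and had a value of 0 in every library.

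At an adjusted p under 0.05 in limma, 21 of the 34 tested genes differed between the labels (61.8%), beside 52.6% of all 14510 genes tested. Of them 15 were higher in the labelled Bmal1-/- libraries, where 24.0% of all genes tested were higher, and 6 were lower, where 28.6% were. Past 2-fold there were 2 genes, Pik3r3 and Sgk3, a rule that 7.21% of all genes tested met. The values of the labels did not overlap for 27 of the 34, as for 76.0% of all genes tested. The median absolute log2 fold change of the 34 genes was 0.23, against 0.24 over all genes tested, so the size of the changes in the pathway was near that of the transcriptome.

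The count of called genes differed between fits. Without the filter on low values 8 genes were higher and 3 lower (32.4% called, beside 23.9% of all genes tested). Without the intensity trend 8 were higher and 2 lower, and the share called (29.4%) was then below that of all genes tested (34.9%). In DESeq2 14 were higher and 3 lower (50%, beside 36%). With the filter raised to a mean of 100, which 33 of the genes passed, 16 were higher and 6 lower. The share called was then 66.7%, beside 61% of all genes tested. Pik3r1, Pik3r2, Pik3r3, Akt1, Sgk3, Rictor, Inpp5d, Tsc1, Deptor and Foxo3 passed the test under every alternative run. Pik3ca, Pik3cd, Pdpk1, Mtor, Rheb, Irs2, Sgk1, Foxo1, Foxo4 and Gsk3b lost their call both without the filter and without the trend.

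**Figure D1:**
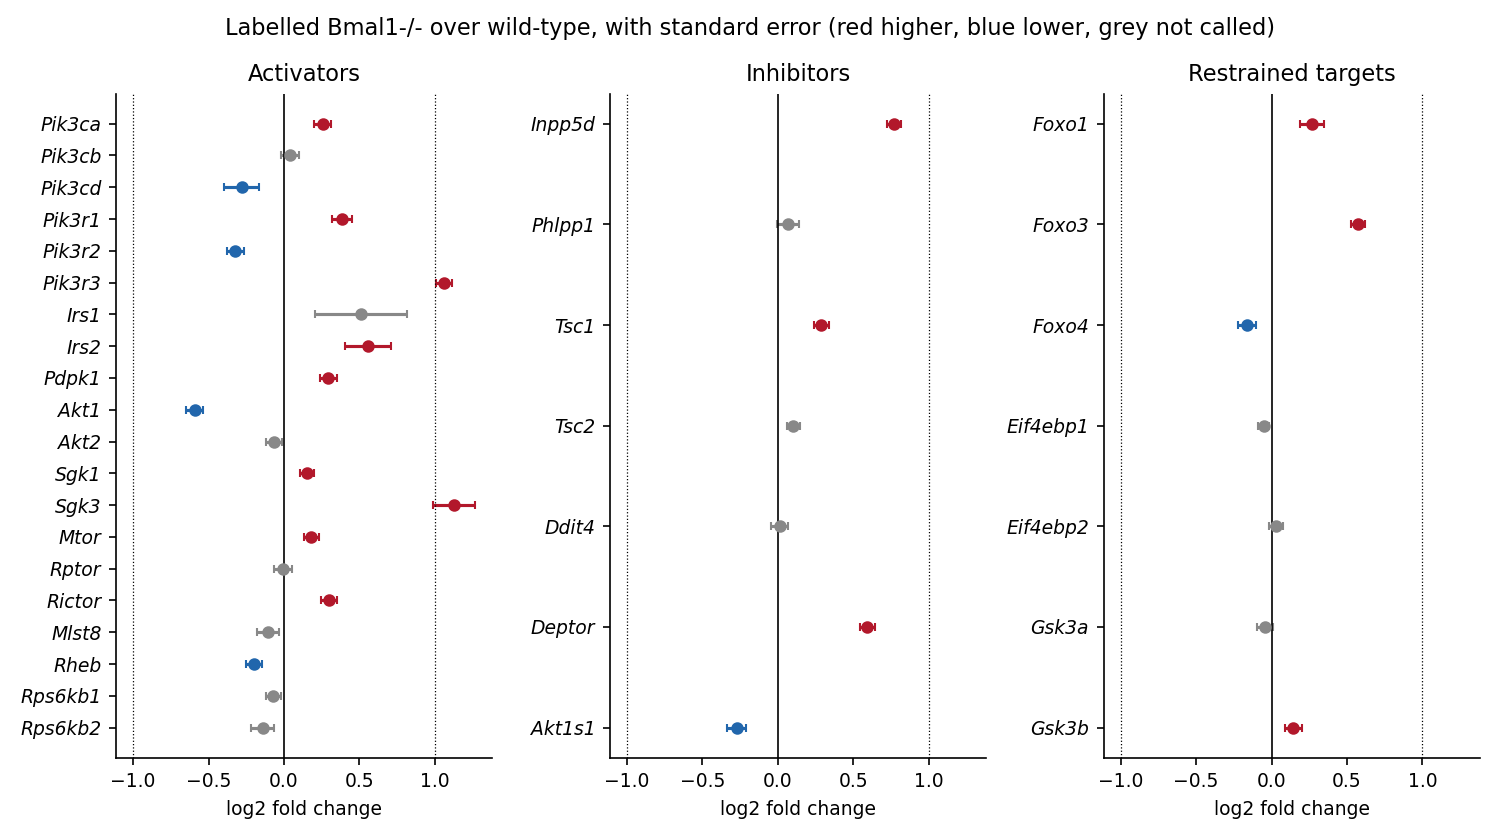
Log2 fold change of each tested gene, labelled Bmal1-/- over wild-type (n = 2 libraries each), with its standard error, in panels for activators, inhibitors and restrained targets. Red and blue mark adjusted p under 0.05 in limma and dotted lines mark 2-fold. The changes run from −0.59 for Akt1 to 1.13 for Sgk3.

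Among the activators, 9 of 20 were higher, 4 lower and 7 did not pass the test (65% called, beside 52.6% of all genes tested). Their median log2 fold change was 0.10, beside −0.03 over all genes tested. That median was 0.04 with the filter raised to a mean of 100, where the all-gene median was −0.06, and 0.16 with equal library totals, where it was 0.03. The first step is taken by the class I catalytic subunits. Pik3ca, which encodes the ubiquitous p110α, stood at 1242 and 1120 in wild-type and at 1403 and 1417 in the labelled Bmal1-/- libraries. Both labelled Bmal1-/- libraries were above both wild-type libraries (log2 fold change 0.26, SE 0.06, adjusted p = 0.00079). Pik3cb, for p110β, stood at 939 and 943 in wild-type and at 938 and 996 in the labelled Bmal1-/- libraries. Here the groups overlapped (log2 fold change 0.04, adjusted p = 0.60). Pik3cd, for the p110δ best known from leukocytes, had the lowest level per kb of the catalytic genes, with values of 261 and 235 in wild-type and 229 and 181 in the labelled Bmal1-/- libraries.

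The groups did not overlap for Pik3cd, but the gap was narrow and only labelled Bmal1-/- replicate 2 was far below wild-type (log2 fold change −0.28, SE 0.12, adjusted p = 0.0496). Without labelled Bmal1-/- replicate 1 the log2 fold change was −0.45. Without replicate 2 it was −0.11 and the call was lost, as it was without wild-type replicate 1 (−0.20), with equal library totals, with median-ratio size factors, with a pseudocount of 0.5 and in edgeR and DESeq2. Per kb of exon length, Pik3cb held 49.1% and 51.8% of the summed level of these 3 genes in wild-type and 47.4% and 49.7% in the labelled Bmal1-/- libraries, so it was the leading catalytic mRNA in each library.

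The regulatory subunits stabilise p110 and dock it to phosphorylated receptors and adaptors. All 3 of their genes differed between the labels, as did 52.6% of all genes tested. Pik3r3, which encodes p55γ, stood at 922 and 883 in wild-type and at 1838 and 1926 in the labelled Bmal1-/- libraries. Both wild-type libraries were low and both labelled Bmal1-/- libraries high, with about a doubling between them (log2 fold change 1.06, SE 0.05, adjusted p = 1.8e-12). Its log2 fold change ran from 1.03 to 1.09 when each library was left out. Pik3r1, for p85α, was higher (log2 fold change 0.39) and Pik3r2, for p85β, lower (−0.32).

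These shifts changed which regulatory mRNA led. Per kb of exon length, Pik3r2 made up 61.5% and 60.5% of the summed level of the 3 genes in wild-type and 41.1% and 39.6% in the labelled Bmal1-/- libraries. Pik3r3 made up 27.0% and 27.6% in wild-type and 46.2% and 47.8% in the labelled Bmal1-/- libraries. Pik3r2 thus led in both wild-type libraries and Pik3r3 in both labelled Bmal1-/- libraries, while the summed level was 645 and 604 per kb in wild-type and 750 and 761 per kb in the labelled Bmal1-/- libraries. Shares within a library do not depend on its scaling, but they do depend on the annotated exon lengths.

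**Figure D2:**
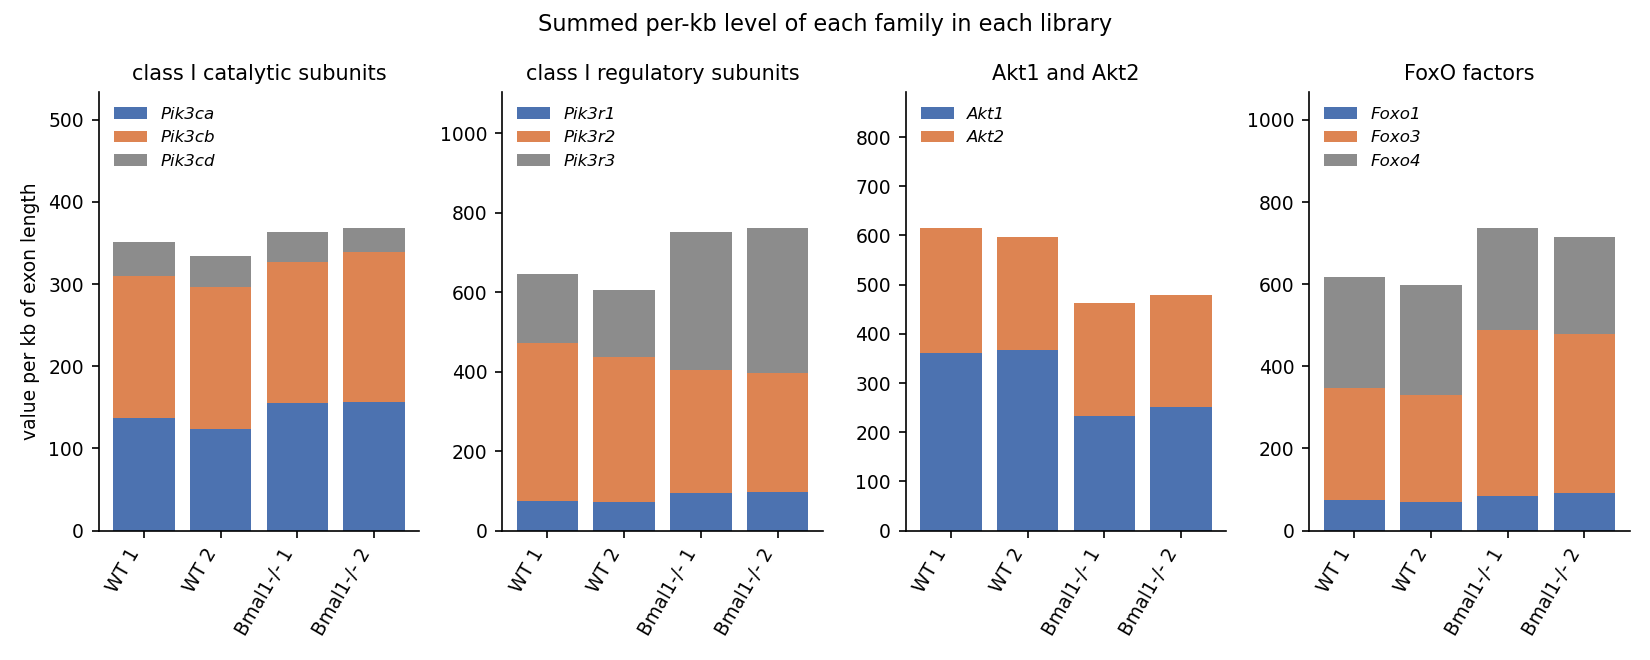
Deposited value per kb of exon length, stacked by gene, in each of the 4 libraries for class I PI3K catalytic subunits, regulatory subunits, Akt1 with Akt2, and FoxO factors. WT marks wild-type. Pik3r3 takes 46.2% and 47.8% of the regulatory level in the labelled Bmal1-/- libraries against 27.0% and 27.6% in wild-type, and the sum of Akt1 and Akt2 is lower in both labelled Bmal1-/- libraries than in either wild-type library.

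The insulin receptor substrates carry the signal from receptors to PI3K and were scarce. Irs2 stood at 153 and 101 in wild-type and at 183 and 184 in the labelled Bmal1-/- libraries. The labelled Bmal1-/- libraries were alike and above both wild-type libraries, which differed from each other (log2 fold change 0.56, SE 0.15, adjusted p = 0.0042). Wild-type replicate 2 carried much of the difference, and without it the log2 fold change was 0.26 and the call was lost. Without wild-type replicate 1 it was 0.86. Irs1 had values between 14.9 and 27.2 and a log2 fold change of 0.51 that did not pass the test. Without wild-type replicate 1 it was 0.82 and passed. It was 0.21 without wild-type replicate 2 and under quantile normalization. Exons of a gene on the opposite strand cover 30.9% of the Irs1 exon length, and whether the counting used the strand was not stated in the sources used here.

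Next come the AGC kinases. Pdpk1, which phosphorylates the activation loop of Akt and Sgk kinases, stood at 2800 and 2397 in wild-type and at 3156 and 3194 in the labelled Bmal1-/- libraries. It was higher in both labelled Bmal1-/- libraries than in either wild-type library (log2 fold change 0.29, SE 0.06, adjusted p = 0.00018), and the change was 0.18 without wild-type replicate 2. Akt1, which had a higher level per kb than Akt2 in each library, stood at 1483 and 1502 in wild-type and at 955 and 1026 in the labelled Bmal1-/- libraries. Both labelled Bmal1-/- libraries were far below both wild-type libraries (log2 fold change −0.59, SE 0.06, adjusted p = 2.5e-08). Akt2 stood at 1803 and 1637 in wild-type and at 1644 and 1634 in the labelled Bmal1-/- libraries.

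The Akt2 groups overlapped, since only wild-type replicate 1 stood above the rest (log2 fold change −0.07, adjusted p = 0.30). Without wild-type replicate 2 it was −0.14 and passed the test, and without wild-type replicate 1 it was 0.0015. Per kb, the sum of Akt1 and Akt2 was 615 and 596 in wild-type and 464 and 479 in the labelled Bmal1-/- libraries. Akt1 held 58.9% and 61.5% of that sum in wild-type and 50.3% and 52.2% in the labelled Bmal1-/- libraries, where Akt2 came close to it.

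Sgk kinases share many substrates with Akt, and Sgk3 binds endosomal phosphoinositide through a PX domain. Sgk3 stood at 75.9 and 90.3 in wild-type and at 182 and 182 in the labelled Bmal1-/- libraries. It was low in wild-type and about doubled in both labelled Bmal1-/- libraries (log2 fold change 1.13, SE 0.14, adjusted p = 9.5e-07). Under quantile normalization its log2 fold change was 0.98, under the 2-fold mark. Sgk1 was the main Sgk mRNA, with 97.6% to 98.5% of the summed per-kb level of Sgk1, Sgk2 and Sgk3 in each library. It was slightly higher in the labelled Bmal1-/- libraries (log2 fold change 0.15), a call that was lost without wild-type replicate 2 (0.09) and without labelled Bmal1-/- replicate 2 (0.14).

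Mtor, the kinase of both mTOR complexes, stood at 2056 and 1934 in wild-type and at 2318 and 2210 in the labelled Bmal1-/- libraries. The groups did not overlap and the difference was small (log2 fold change 0.18, SE 0.05, adjusted p = 0.0040). It was 0.15 and lost its call without labelled Bmal1-/- replicate 1. Rptor, the scaffold of mTORC1, stood at 1813 and 1596 in wild-type and at 1732 and 1655 in the labelled Bmal1-/- libraries. These groups overlapped (log2 fold change −0.01, adjusted p = 0.93), and the sign of the change turned with the scaling.

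Rictor, the scaffold of mTORC2, the complex that phosphorylates the hydrophobic motif of Akt, stood at 1345 and 1328 in wild-type and at 1589 and 1696 in the labelled Bmal1-/- libraries. Both labelled Bmal1-/- libraries were above both wild-type libraries (log2 fold change 0.30, SE 0.05, adjusted p = 8.0e-05). Mlst8, a subunit of both complexes, had a log2 fold change of −0.11 that did not pass the test. It was −0.20 and passed without wild-type replicate 2, and it was −0.019 without wild-type replicate 1. Exons of a gene on the opposite strand cover 29.7% of the Mlst8 exon length.

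Rheb, the GTPase that activates mTORC1 on the lysosome, stood at 1915 and 2032 in wild-type and at 1655 and 1782 in the labelled Bmal1-/- libraries. Both labelled Bmal1-/- libraries were below both wild-type libraries (log2 fold change −0.20, SE 0.05, adjusted p = 0.0031). Without labelled Bmal1-/- replicate 1 the change was −0.15 and the call was lost, as it was in DESeq2. The S6 kinases, which mTORC1 phosphorylates to raise ribosomal protein S6 phosphorylation, did not pass the test. Their log2 fold changes were −0.07 for Rps6kb1 and −0.14 for Rps6kb2. The Rps6kb2 value ran from −0.20 to −0.08 when each library was left out.

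**Figure D3:**
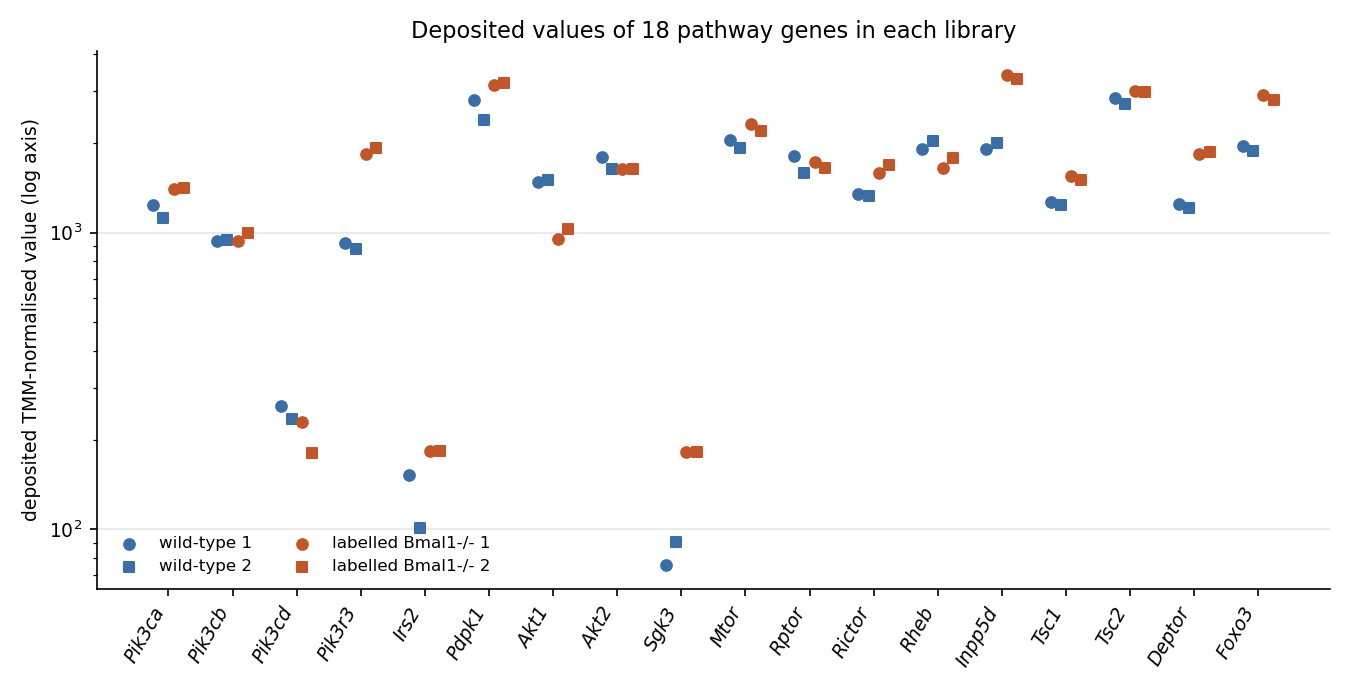
Deposited TMM-normalised value, on a log axis, of 18 pathway genes in each of the 4 libraries (blue, wild-type; orange, labelled Bmal1-/-; circle, replicate 1; square, replicate 2). The labels stand furthest apart for Pik3r3, Sgk3, Inpp5d, Deptor, Akt1 and Foxo3, and overlap for Pik3cb, Akt2 and Rptor.

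Of the 8 inhibitors 7 were tested. Of these, 3 were higher, 1 lower and 3 did not pass the test (57.1% called, beside 52.6% of all genes tested). Their median log2 fold change was 0.10, without Inpp4b, which had no reads, beside −0.03 over all genes tested. It was 0.16 with equal library totals, 0.15 when wild-type replicate 1 was left out and 0.072 when wild-type replicate 2 was. Inpp5d encodes SHIP1, a phosphatase that removes the 5-phosphate of PIP3 and is best known from blood cells, though embryonic stem cells are known to express a shorter form from an internal promoter. It stood at 1918 and 2014 in wild-type and at 3397 and 3300 in the labelled Bmal1-/- libraries. The labelled Bmal1-/- libraries were both high and close to each other (log2 fold change 0.77, SE 0.05, adjusted p = 2.5e-11). Gene-level values do not tell the forms apart, and of the blood markers Ptprc and Hbb-b1 were at or near 0 and Gata1 had values of 5.31 to 9.54.

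Phlpp1, a phosphatase of the Akt hydrophobic motif, did not pass the test (log2 fold change 0.07). Tsc1 and Tsc2 together form the complex that turns Rheb off. Tsc1 stood at 1265 and 1235 in wild-type and at 1559 and 1500 in the labelled Bmal1-/- libraries, which were both above wild-type (log2 fold change 0.29, SE 0.05, adjusted p = 9.4e-05). Tsc2 stood at 2848 and 2723 in wild-type and at 3011 and 2975 in the labelled Bmal1-/- libraries. Its groups did not overlap, yet the difference of 0.10 on the log2 scale just missed the threshold (adjusted p = 0.056).

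Tsc2 passed with equal library totals, median-ratio size factors, quantile normalization, a mean of at least 100, a replicate block and edgeR. It also passed without wild-type replicate 1 (0.14). Exons of Pkd1 on the opposite strand cover 9.1% of the Tsc2 exon length. Such overlap with opposite-strand genes covers 12.1% for Foxo1 and 19.3% for Gsk3a. Ddit4, a stress-induced activator of the Tsc complex, had a log2 fold change of 0.01.

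Deptor binds mTOR and restrains both complexes. It stood at 1252 and 1209 in wild-type and at 1841 and 1872 in the labelled Bmal1-/- libraries. Both labelled Bmal1-/- libraries were well above wild-type (log2 fold change 0.59, SE 0.05, adjusted p = 6.2e-09). Akt1s1, for the mTORC1 inhibitor PRAS40, which Akt phosphorylates, was lower (log2 fold change −0.27), a call that was lost without the intensity trend.

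Among the 7 restrained targets 3 were higher, 1 lower and 3 did not pass the test (57.1% called, beside 52.6% of all genes tested). Their median log2 fold change was 0.03, beside −0.03 over all genes tested. That median was −0.033 without wild-type replicate 2, 0.093 without wild-type replicate 1 and 0.090 with equal library totals, so its sign turned when 1 library was left out. Akt keeps FoxO factors out of the nucleus, and Foxo3 was the FoxO gene called under every alternative. Foxo3 stood at 1953 and 1886 in wild-type and at 2915 and 2799 in the labelled Bmal1-/- libraries. Both labelled Bmal1-/- libraries were well above wild-type (log2 fold change 0.57, SE 0.05, adjusted p = 3.0e-09). Foxo1, at 11.4% to 12.7% of the summed FoxO level per kb in each library, was higher (0.27) and lost its call without labelled Bmal1-/- replicate 2 (0.21).

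Foxo4 was lower (log2 fold change −0.16), with no overlap between the labels. That call was lost without wild-type replicate 1 (−0.15), without labelled Bmal1-/- replicate 1 (−0.20) or 2 (−0.12), under equal library totals, median-ratio size factors and quantile normalization, and in edgeR and DESeq2. Per kb, Foxo3 and Foxo4 were level in wild-type, with 43.8% and 43.7% for Foxo3 and 44.0% and 44.7% for Foxo4. In the labelled Bmal1-/- libraries Foxo3 led with 54.9% and 54.4% and Foxo4 held 33.6% and 32.9%.

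The 4E-BPs, which block cap-dependent translation until mTORC1 phosphorylates them, did not pass the test. Eif4ebp1 had a log2 fold change of −0.05, which turned to 0.0077 with equal library totals, and Eif4ebp2 one of 0.03. Eif4ebp1 was the most abundant of the 35 genes per kb, at 10070 and 10100 in wild-type and 9890 and 9559 in the labelled Bmal1-/- libraries. Of the Gsk3 genes, whose products CHIR99021 inhibits in these cultures, Gsk3a did not pass the test (−0.04). Gsk3b was higher (0.15), a call that was lost in DESeq2 and without wild-type replicate 2 (0.08), labelled Bmal1-/- replicate 1 (0.17) or labelled Bmal1-/- replicate 2 (0.12).

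Bmal1 with its partner Clock is known to bind the E-box CACGTG, and RefSeq start-site windows (GRCm38.p6) were searched for those letters, which read the same on both strands. Each window runs from 250 bases before to 50 bases after a start. Windows were available for 30 of the 35 genes, with 45 starts. Rps6kb2, Deptor, Eif4ebp1, Sgk3 and Foxo4 were not in the table. The letters were in 4 of the 45 windows (8.89%), of Irs1, Irs2, Rheb and Sgk1, and in 7.15% of all 32851 windows. The matches are shown with their flanks because Bmal1 is the targeted gene, with the E-box in capitals, 5′ to 3′ on the strand of the gene.
Irs1, chr1:82291539-82291564, minus strand: gaggctccgtCACGTGttttgctcct
Irs2, chr8:11008958-11008983, minus strand: aacgcagagtCACGTGttgttttgct
Rheb, chr5:24842442-24842467, minus strand: cgcgcgcggtCACGTGggtgtgttgt
Sgk1, chr10:21993640-21993659, plus strand: tcctCACGTGttcttggcat

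The genes with these letters did not share a direction. Irs2 and Sgk1 were higher in the labelled Bmal1-/- libraries, Rheb was lower and Irs1 did not pass the test. The letters lie 115 to 110 bases before the start in Irs1, 96 to 91 in Rheb and 44 to 39 in Irs2. In Sgk1 they are in the window of 1 of its 6 starts, 246 to 241 bases before it. A match is a description of the letters and does not show binding.

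The windows of Pik3r3, Inpp5d, Foxo3 and Akt1, the most changed genes in the table, did not hold these letters. The 120 bases before the start are shown for the 3 of them that were higher, to compare their make-up, with CG in capitals (for Pik3r3, the first of 3 starts).
Pik3r3, chr4:116221296-116221415, plus strand: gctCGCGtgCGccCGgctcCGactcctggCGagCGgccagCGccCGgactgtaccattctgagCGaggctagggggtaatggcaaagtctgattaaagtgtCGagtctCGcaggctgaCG
Foxo3, chr10:42276696-42276815, minus strand: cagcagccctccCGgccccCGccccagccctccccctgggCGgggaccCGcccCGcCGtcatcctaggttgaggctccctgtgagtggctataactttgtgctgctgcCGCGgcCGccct
Inpp5d, chr1:87620192-87620311, plus strand: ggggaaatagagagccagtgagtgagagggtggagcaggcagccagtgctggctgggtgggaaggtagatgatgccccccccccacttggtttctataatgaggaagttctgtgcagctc

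The windows of the first Pik3r3 start and of Foxo3 held 25 and 35 CG in 300 bases, against a median of 20 over the 45 windows of the core and 7 over all windows. The other Pik3r3 starts held 14 and 6, and the starts of Akt1, which was lower, 8 and 42. Inpp5d held 6 in its window and 0 in the stretch shown. The Inpp5d stretch lies before the start that RefSeq lists, and no internal promoter was in the table.

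The genes around the core were examined in 7 lists, whose counts stand beside 24.0% higher and 28.6% lower among all genes tested. Of 14 tested other PI3K and phosphoinositide genes, 5 were higher and the other 9 did not pass the test (median log2 fold change 0.20). They were led by Pik3r6, a regulatory subunit of the PI3Kγ class (2.00), Pik3c2a, a class II PI3K (0.73), and Inppl1, which encodes SHIP2 (0.53). Pik3r6 was scarce, at 4.21 and 4.25 in wild-type and 20.7 and 19.1 in the labelled Bmal1-/- libraries. It passed the filter on low values only through the libraries where it was high, so its call and its place in the list follow in part from the filter. Pik3cg, the catalytic gene of the PI3Kγ class, had 0 and 1 reads in wild-type and 0 and 0 in the labelled Bmal1-/- libraries, and was not tested. Inpp5d and Inppl1, the genes of both SHIP phosphatases, were thus higher, and their summed level per kb was 685 and 705 in wild-type and 1099 and 1042 in the labelled Bmal1-/- libraries.

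Of 14 other Akt regulators, 2 were higher and 7 lower (median −0.16). Phlpp2, which encodes a phosphatase of Akt and is the relative of Phlpp1, was higher (0.86), as was the pseudokinase gene Trib1 (0.33). The lower genes were led by the pseudokinase gene Trib3 (−0.45), the Hsp90 co-chaperone gene Cdc37 (−0.32) and Ppp2cb, a catalytic subunit of PP2A (−0.23). Of 8 other mTOR complex and Tsc genes, 2 were higher, the mTORC2-associated Prr5l (0.90) and the Ddit4 relative Ddit4l (0.84). Lower were 3, Tbc1d7, the third subunit of the Tsc complex (−0.58), the Rheb relative Rhebl1 (−0.36) and the mTOR assembly factor Telo2 (−0.19).

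The amino acid sensing genes bring mTORC1 to the lysosome. Of 28 tested, 15 were lower and 5 higher, with a median log2 fold change of −0.16. The lower genes were led by Rragb (−1.72), Rragd (−0.84) and Lamtor3 (−0.62), and the higher ones by Sesn1 (0.71), Fnip1 (0.52) and Slc38a9 (0.40). Rragb, a Rag GTPase, stood at 504 and 501 in wild-type and at 142 and 162 in the labelled Bmal1-/- libraries. The 4 Rag GTPase genes and the 5 Lamtor genes, a grouping made after their values were seen, had log2 fold changes from −1.72 to −0.14. Rraga, Lamtor2 and Lamtor4 lost their call under some alternatives.

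AMPK is the energy sensor that restrains mTORC1. Its list also holds genes of upstream kinases and of their partners, Cab39 being one of the latter. Of the 12 tested genes on it 3 were higher, Prkaa2 (0.65), Cab39 (0.49) and Prkab2 (0.29). Another 3 were lower, Prkab1 (−0.52), Prkag1 (−0.39) and Stk11, which encodes the upstream kinase Lkb1 (−0.21). Of 11 genes listed as translation genes downstream of mTORC1, 3 were lower, Rps6 (−0.21), Eif4e (−0.17) and Eif4b (−0.12). The 1 higher gene was Lpin1 (0.26), an mTORC1 substrate that encodes a phosphatidate phosphatase of lipid metabolism and not a translation factor.

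FoxO target genes went both ways. Of 18 tested, 8 were higher and 6 lower (median 0.22). The higher ones were led by Fbxo32 (1.20), which passed the filter on low values only through the labelled Bmal1-/- libraries, the transcriptional co-regulator Cited2 (0.87) and the insulin receptor gene Insr (0.65). The lower ones were led by Txnip (−0.71), Gadd45a (−0.53) and Bcl6 (−0.36).

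**Figure D4:**
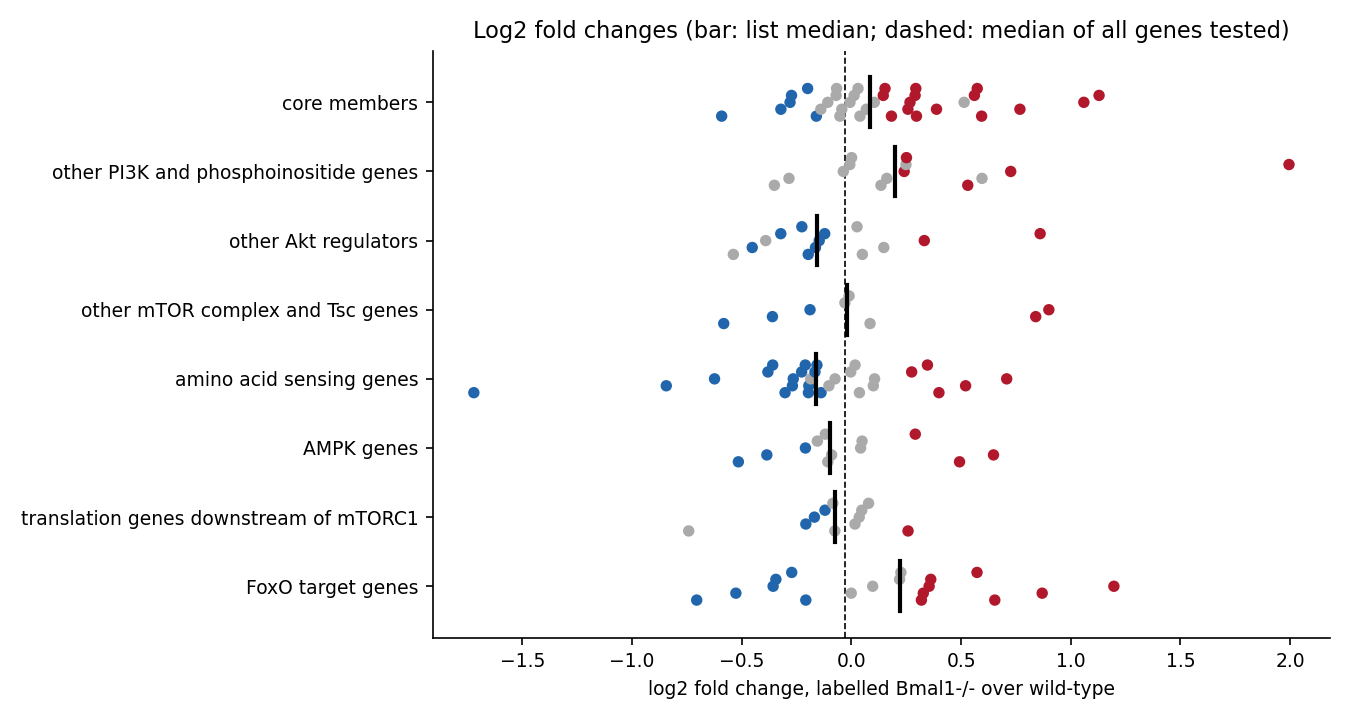
Log2 fold change, labelled Bmal1-/- over wild-type (n = 2 libraries each), of each tested gene in the core and in 7 neighbouring lists. Red is higher and blue lower at adjusted p under 0.05 in limma, grey did not pass, black bars are list medians and the dashed line is the median of all genes tested (−0.03). Amino acid sensing genes lie mostly to the left, with Rragb at −1.72.

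Across the core, the tested genes were well expressed, with a median over genes of 1412 for the mean value, beside 456 over all genes tested. The median SE was 0.05 on the log2 scale, and the smallest called log2 fold change was 0.15 in size (Gsk3b). With 2 libraries of a line, these tests measure the spread between cultures of that line.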

How the data were processed

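The deposited signal is the authors' TMM-normalised read count per gene in 4 mRNA-seq libraries (2 wild-type, 2 labelled Bmal1-/-). Per the submitters' processing notes, bcl2fastq 2.18.0.12, cutadapt 1.9.1 and STAR 2.5.2b were used with build mm9. The counting tool was not given in the sources used here, and the authors' own test was DESeq2. All 37310 IDs matched GENCODE vM1, which gave symbols and exon lengths. Dividing by the smallest value of a library gave whole reads for 100% of values (tolerance 0.01 reads).

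Differences were tested with limma 3.58.1 in R 4.3.3 (lmFit, eBayes with trend) on log2(value + 1). The 14510 genes whose mean reached 10 were kept, with Benjamini-Hochberg adjustment over all of them. Called means an adjusted p under 0.05, and past 2-fold an absolute log2 fold change above 1. Alternatives changed the filter, pseudocount, scaling, trend, block, replicates or tool (edgeR 4.0.16, DESeq2 1.42.0). limma called 7639 genes, edgeR 7682 and DESeq2 5226. The test was checked on simulated data with most genes unchanged and planted changes of at least 2-fold, which does not cover the smaller changes called here. Replicates differed by more than counting noise (chi-square per degree of freedom 2.97 in wild-type, 1.94 in labelled Bmal1-/-).

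The members and lists were chosen with earlier results of these data known. Library values are given for members with an adjusted p under 0.05 and an absolute log2 fold change of at least 0.5, and for Pik3ca, Pik3cb, Pik3cd, Akt1, Akt2, Pdpk1, Mtor, Rptor, Rictor, Tsc1, Tsc2 and Rheb. Lists name up to 3 called genes in each direction by size of change, and genes named beyond this were chosen after their values were seen. The 8 marker lists are naive, primed, primitive endoderm, trophoblast, two-cell-like, neural, fibroblast and blood. In the lists 5 genes were matched by an older symbol, 4 had no match, and 3 had 2 IDs, of which the longest protein-coding one was used. Every column of the table was used. Figures and summaries used Python 3.11.15, pandas 2.3.3 and matplotlib 3.10.9.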

Additional observations from a re-analysis of the deposited data

How the results depend on the processing

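Of 509 recomputed log2 fold changes of single members, 436 kept their direction and their side of the threshold, 47 lost the call, 10 gained it and 16 changed sign, none of the last being of a called gene. The counts of 15 members higher and 6 lower became 8 and 3 with no filter on low values, where 23598 genes were tested, and 8 and 2 without the trend. The share of all genes called was then 23.9% and 34.9%, against 52.6%. DESeq2 gave 14 higher and 3 lower (36% of all genes called), and edgeR 16 and 4 (52.9%). Quantile normalization left 1 member past 2-fold, Pik3r3. With equal library totals the median was 0.16 for the inhibitors and 0.090 for the restrained targets. The cause of these shifts was not tested.

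Leaving out each library in turn, with the lone library assumed to vary like the others, gave 12 to 17 members higher, 4 to 8 lower and 2 past 2-fold. The activator median was 0.039 with a mean of at least 100 and 0.16 with equal library totals. When libraries were left out the median ranged from 0.06 to 0.15 for activators, from 0.072 to 0.15 for inhibitors and from −0.033 to 0.093 for restrained targets. Changes of sign were seen there for Pik3cb (−0.0039 to 0.081), Akt2 (−0.14 to 0.0015), Rptor (−0.099 to 0.085), Phlpp1 (−0.015 to 0.15), Ddit4 (−0.051 to 0.075) and Eif4ebp2 (−0.033 to 0.093). Rptor was 0.054 with equal library totals, 0.024 with median-ratio size factors, 0.034 with quantile normalization, 0.015 in edgeR and 0.022 in DESeq2. With equal library totals Eif4ebp1 was 0.0077 and Gsk3a 0.016, and Gsk3a was 0.014 with quantile normalization.

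A replicate block gave 16 members higher and 6 lower, Tsc2 being the gene gained (log2 fold change 0.10). The labels number the experiments but do not say that equal numbers were run together, and with 2 pairs this cannot be decided (correlation of the replicate 1 deviations −0.02). The all-gene median log2 fold change stayed between −0.06 and 0.03 over these alternatives. Genes with few reads, such as Irs1, had wide errors, and mRNA values say nothing about phosphorylation or activity of the pathway.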
